A study of Mus musculus with 6 samples.

Results

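The 8 genes described here belong to the T lineage and were followed in dendritic cells (DCs) sorted from the mouse thymus. They were chosen by gene symbol, and all 8 had a row among the 23420 genes counted in each of 6 libraries. They comprised the co-receptor genes Cd4, Cd8a and Cd8b1, the CD3 chain genes Cd3d, Cd3e and Cd3g, the pre-T cell receptor alpha gene Ptcra and the kinase gene Lck. The 6 libraries formed 3 groups of 2, all from mice labelled wild type and all assigned to batch 1. YG+ pDCs were plasmacytoid DCs (CD11c low, B220+) that carried yellow-green microspheres. They came from mice with subcutaneous tumours of MC38, a mouse colon carcinoma line. Tumours had grown for 12 days when the microspheres were injected into them, and the thymus was taken 2 days after that. PBS pDCs (CD11c low, B220+) and PBS Sirpa+ DCs (CD11c high, Sirpa+, a conventional DC subset) came from mice given PBS. All 6 libraries, YG+ pDCs included, are listed at 2 weeks. The labels do not say whether the PBS mice bore tumours, so tumour, microspheres and the gate on microspheres cannot be told apart in YG+ pDCs. The sources used here do not give strain or age, or whether libraries of a group came from separate or pooled mice. The p-values therefore measure the spread between these libraries, which may be technical.

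In a T cell, the CD3 chains carry the signal of the antigen receptor into the cell, and CD4 or CD8 binds the MHC molecule beside the receptor and brings in the kinase Lck. Developing thymocytes first pair a rearranged beta chain with the invariant pre-T cell receptor alpha chain, and then carry CD4 and CD8 together. Some of these genes are also known outside the T lineage: mouse pDCs and some conventional DCs carry CD4, and others carry CD8 alpha, which can reach the surface without the beta chain. CD8 beta needs CD8 alpha to reach the surface. Thymocytes are by far the most numerous cells of the organ from which these DCs were sorted.

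The 8 genes fell apart into those with reads and those with few or none. The co-receptor genes and Lck had 1212 reads over the 6 libraries, whereas the CD3 chain genes and Ptcra had 19, or 1.54% of the 1231 reads of all 8 genes. By library this share was 0% to 1.54%, except for 16.2% in Sirpa+ DC replicate 1 (6 of 37 reads, all of Cd3d). Over the Sirpa+ DC group Cd3d had 6 reads, against 6, 3 and 4 of Cd8a, Cd8b1 and Lck. The division thus describes the pDC libraries, and in Sirpa+ DCs only Cd4 stood apart. Cd8a, Cd8b1 and Lck were high in pDCs and near the detection floor in Sirpa+ DCs, and Cd4 was present in all 3 groups. Cd3g and Ptcra had 0 reads in every library. Genes with few or no reads were common at this depth. Of the 23420 genes, 16777 had at least 1 read over the 6 libraries and 8141 had enough to be tested. The plot of the 8 genes by library shows how they divided.

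**Figure D1:**
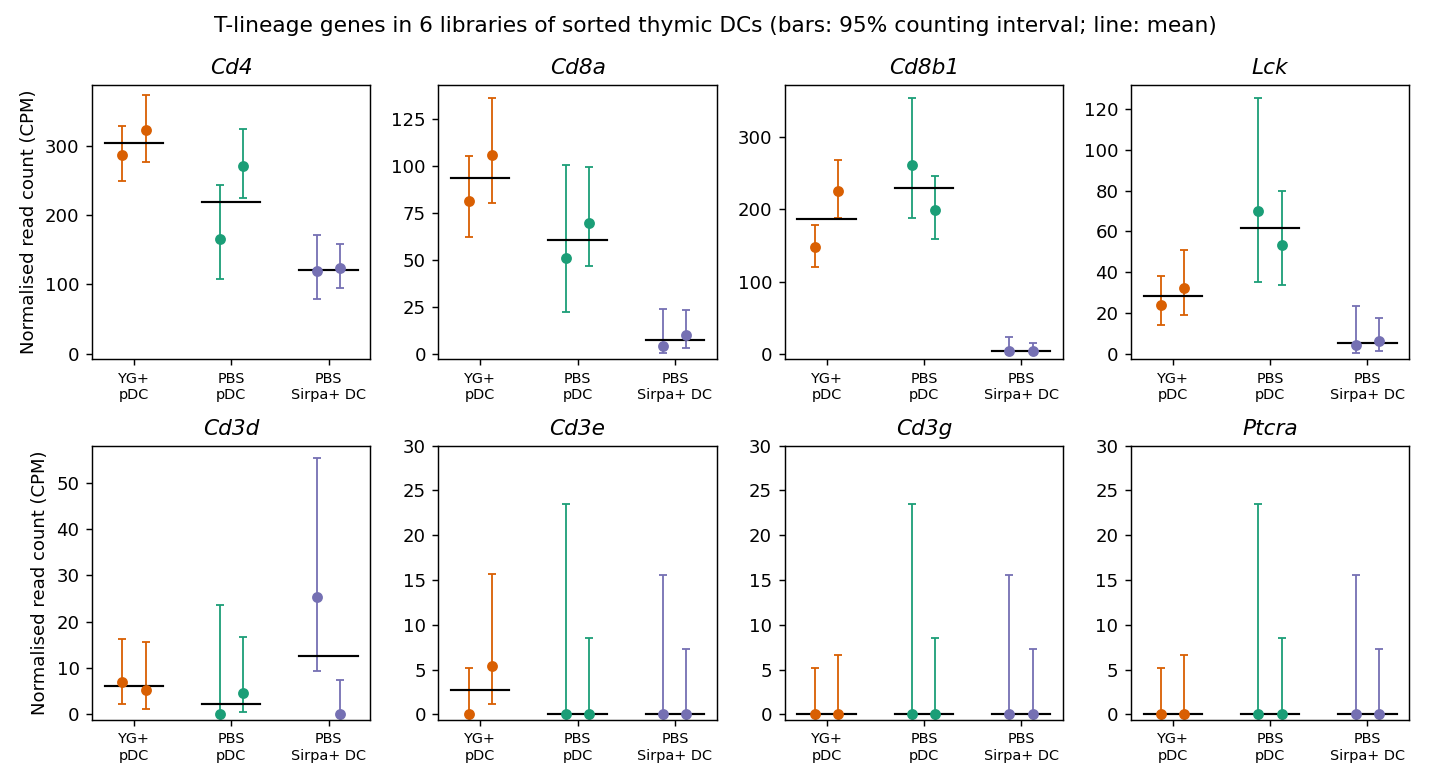
Normalised read count (CPM, reads per 1000000, y axis, a scale for each gene) of the 8 genes in the 3 sorted groups (x axis). Each point is a library with its 95% exact Poisson interval, which covers counting error only, and the black line is the mean of the 2 libraries. Cd8b1 stood between 147 and 262 CPM in the 4 pDC libraries and at 3.99 and 4.23 CPM in Sirpa+ DCs, and Cd3g and Ptcra were at 0 in every library.

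Reads assigned to genes were few. Their total ran from 177844 in PBS pDC replicate 1 to 713966 in YG+ pDC replicate 1, which was 0.842% to 3.36% of uniquely placed reads. Levels are given as CPM, the count per 1000000 reads in the tested genes after trimmed mean of M-values (TMM) scaling, and 3 reads corresponded to 4.21 to 19.1 CPM in a library. The sources used here do not say whether the counting used strand. Tsix, which lies opposite Xist, had 2.70 to 20.5 times the reads of Xist, the most in PBS pDC replicate 1. The counts of PBS pDC replicates 1 and 2 differed most of the 3 pairs, by a chi-square of 9.20 per degree of freedom against 2.52 in YG+ pDCs and 4.70 in Sirpa+ DCs. Replicate 1 was the shallowest library, so several fits of the members are also given without it. Shares of the CD8 genes, levels per kilobase, rankings of like genes and the level of Cd27 are given only with it. The summed CPM of 9 pDC marker genes was 4121 to 5910 in the pDC libraries and 757 and 839 in the Sirpa+ DC libraries. For 12 conventional DC marker genes it was 3554 to 4204 against 12902 and 14632 in the same order.

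Promoter sequences of 6 of the 8 members were at hand from RefSeq (GRCm38.p6), without Cd4 and Cd8b1. The windows of a gene counted in pDCs, Cd8a, of Lck with its upstream and downstream starts, and of Cd3e and Ptcra, which had few or no reads, are shown for comparison. Each is the 250 bases before a transcription start, and capitals mark the E-box CANNTG, the hexamer read by helix-loop-helix proteins such as the pDC factor TCF4.
Cd8a, chr6:71373177-71373426, plus strand: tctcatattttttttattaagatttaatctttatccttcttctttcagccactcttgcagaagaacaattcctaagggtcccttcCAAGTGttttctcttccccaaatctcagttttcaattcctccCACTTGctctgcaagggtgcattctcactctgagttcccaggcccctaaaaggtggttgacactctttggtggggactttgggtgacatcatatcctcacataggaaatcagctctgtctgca
Lck, upstream start, chr4:129573642-129573891, minus strand: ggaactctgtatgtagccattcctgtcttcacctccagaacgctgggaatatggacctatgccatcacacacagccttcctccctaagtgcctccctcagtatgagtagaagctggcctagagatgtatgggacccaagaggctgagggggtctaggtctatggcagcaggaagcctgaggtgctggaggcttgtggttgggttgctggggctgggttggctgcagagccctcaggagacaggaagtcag
Lck, downstream start, chr4:129558373-129558622, minus strand: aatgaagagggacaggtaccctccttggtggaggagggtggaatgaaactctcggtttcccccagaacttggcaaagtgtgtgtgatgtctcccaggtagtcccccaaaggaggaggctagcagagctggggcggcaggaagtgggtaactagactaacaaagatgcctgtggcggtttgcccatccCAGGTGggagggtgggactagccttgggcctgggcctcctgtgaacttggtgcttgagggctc
Cd3e, chr9:45009612-45009861, minus strand: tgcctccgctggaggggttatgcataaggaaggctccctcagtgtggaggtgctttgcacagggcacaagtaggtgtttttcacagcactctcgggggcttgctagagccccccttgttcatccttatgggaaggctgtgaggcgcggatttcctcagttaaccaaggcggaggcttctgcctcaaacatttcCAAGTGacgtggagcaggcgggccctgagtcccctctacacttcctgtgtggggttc
Ptcra, chr17:46763713-46763962, minus strand: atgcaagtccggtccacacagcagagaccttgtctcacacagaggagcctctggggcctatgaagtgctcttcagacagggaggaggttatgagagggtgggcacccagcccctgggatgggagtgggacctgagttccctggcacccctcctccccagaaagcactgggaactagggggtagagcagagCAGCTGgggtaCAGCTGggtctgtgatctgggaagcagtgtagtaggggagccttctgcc

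The form CANNTG reads the same on both strands, and CAGCTG and CACCTG are forms of it. There were 2 in the Cd8a window, 0 and 1 in the windows of the upstream and downstream Lck starts, 1 each for Cd3d and Cd3e, 3 for Cd3g and 2 for Ptcra. Of 32851 windows of the same length over all genes, 66.2% held at least 1 and 12.2% held 3 or more. Both matches of Ptcra were CAGCTG, a form found in 13.0% of all windows. CACCTG, searched on both strands as CACCTG and CAGGTG, was in the windows of Cd3d, Cd3g and the downstream Lck start, and in 17.2% of all windows. Matches thus stood before genes with reads and before genes without, and a match is a description of letters only.

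Cd8b1 encodes the CD8 beta chain (chromosome 6, 71322788 to 71337494, plus strand, GRCm38). Its level was 147 and 225 CPM in the YG+ pDC libraries (105 and 126 reads), 262 and 199 CPM in the PBS pDC libraries (41 and 86 reads), and 4.23 and 3.99 CPM in the Sirpa+ DC libraries (1 and 2 reads). All 4 pDC libraries lay far above both Sirpa+ DC libraries, while the ranges of the 2 pDC groups overlapped. In the edgeR quasi-likelihood test Cd8b1 rose in PBS pDCs against Sirpa+ DCs, with a log2 fold change of 5.71 ± 0.63 SE and an adjusted p = 7.90e-04. Since the Sirpa+ DC group held 3 reads in all, the ratio of pooled levels was 53.0, with a counting interval of 17.7 to 261. In YG+ pDCs against the same Sirpa+ DC libraries the log2 fold change was 5.42 ± 0.63 (adjusted p = 0.00137), and the pooled ratio was 44.7 (15.1 to 218). In bulk libraries such as these, fewer cells with a transcript and less of it per cell cannot be told apart.

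Cd8a encodes the CD8 alpha chain (chromosome 6, 71373427 to 71379173, plus strand), downstream of Cd8b1 on the same strand. YG+ pDCs held 81.5 and 106 CPM (58 and 59 reads), PBS pDCs 51.0 and 69.4 CPM (8 and 30 reads) and Sirpa+ DCs 4.23 and 9.97 CPM (1 and 5 reads). The 3 groups did not overlap, with YG+ pDCs highest. Cd8a rose against Sirpa+ DCs in PBS pDCs (log2 fold change 2.92 ± 0.62 SE, adjusted p = 0.0134) and in YG+ pDCs (3.51 ± 0.59, adjusted p = 0.00685). Without PBS pDC replicate 1 the log2 fold change of PBS pDCs was 3.08 for Cd8a (adjusted p = 0.00382) and 5.53 for Cd8b1 (adjusted p = 2.93e-05). Without Sirpa+ DC replicate 1 or 2 Cd8a no longer passed, with adjusted p = 0.0861 and 0.0778 in PBS pDCs and 0.0775 and 0.0590 in YG+ pDCs, and its log2 fold change stayed at 2.60 or more.

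The balance of the CD8 chains within a library does not depend on how libraries are scaled. Reads of Cd8b1 were 64.4% and 68.1% of Cd8a and Cd8b1 reads together in YG+ pDCs (105 of 163 and 126 of 185). They were 83.7% and 74.1% in PBS pDCs (41 of 49 and 86 of 116). The 95% Wilson intervals were 56.8% to 71.4% and 61.1% to 74.4% in YG+ pDCs, and 71.0% to 91.5% and 65.5% to 81.2% in PBS pDCs. Both PBS values lay above both YG+ values, but each PBS interval overlapped both YG+ intervals. The mean shares were 78.9% and 66.3%, and the exact permutation test gave a two-sided p = 0.333, the smallest that 2 libraries against 2 allow. In Sirpa+ DCs, where only 2 and 7 CD8 reads were counted, the shares of 50% and 28.6% had intervals of 9.45% to 90.5% and 8.22% to 64.1%.

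**Figure D2:**
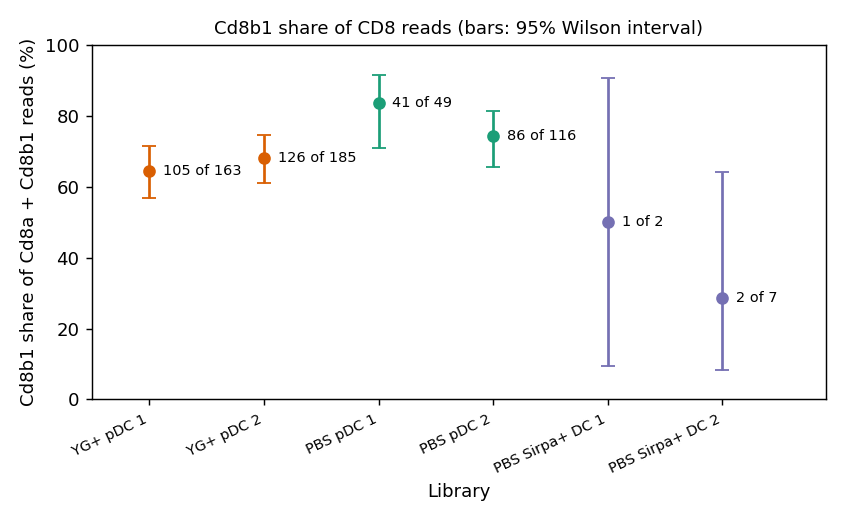
Share of Cd8b1 reads among Cd8a and Cd8b1 reads (y axis, percent) in each of the 6 libraries (x axis), with 95% Wilson intervals, coloured by group, and the reads behind each share printed beside it. PBS pDCs stood at 83.7% and 74.1% and YG+ pDCs at 64.4% and 68.1%, while the Sirpa+ DC intervals span most of the axis.

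Cd4 (chromosome 6, 124864692 to 124888221, minus strand) encodes the co-receptor for MHC class II. YG+ pDCs held 287 and 322 CPM, PBS pDCs 166 and 271 CPM and Sirpa+ DCs 118 and 124 CPM, with 26 to 204 reads a library. The groups did not overlap, and the Sirpa+ DC libraries, unlike for the CD8 genes, held 28 and 62 reads. The difference from Sirpa+ DCs did not pass the test in PBS pDCs (log2 fold change 0.87 ± 0.43, adjusted p = 0.242) or in YG+ pDCs (1.33 ± 0.42, adjusted p = 0.0834). In YG+ pDCs Cd4 passed once PBS pDC replicate 1 or replicate 2 was left out of the common fit (adjusted p = 0.0101 and 0.0120), and over its alternatives the adjusted p ran from 0.0101 to 0.572.

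Lck (chromosome 4, 129548344 to 129573641, minus strand), the kinase that the co-receptors bind, stood at 23.9 and 32.2 CPM in YG+ pDCs, at 70.2 and 53.2 CPM in PBS pDCs, and at 4.23 and 5.98 CPM in Sirpa+ DCs. Reads were few, 17 and 18, 11 and 23, and 1 and 3 in turn, and the 3 groups did not overlap. Here PBS pDCs were highest. Lck rose in PBS pDCs against Sirpa+ DCs (log2 fold change 3.42 ± 0.71, adjusted p = 0.0113, and adjusted p = 0.00949 without PBS pDC replicate 1). Without Sirpa+ DC replicate 1 or 2 it no longer passed (adjusted p = 0.0692 and 0.0986). In YG+ pDCs the log2 fold change was 2.32 ± 0.71 (adjusted p = 0.0757), and it passed without PBS pDC replicate 1 (adjusted p = 0.0385) or replicate 2 (adjusted p = 0.0423). These comparisons share the Sirpa+ DC libraries.

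The CD3 chain genes lie together on chromosome 9 and encode the delta, epsilon and gamma chains that every mature T cell carries. Cd3g (44969572 to 44980431, minus strand) had 0 reads in the 6 libraries, which allows up to 1.15 CPM over all of them. Cd3e (44998740 to 45009627, minus strand) had 3 reads, all in YG+ pDC replicate 2, or 5.37 CPM there. Of its exon length, 135 bases lie under an exon of the opposite strand. Cd3d (44981786 to 44987339, plus strand) had 5 and 3 reads in YG+ pDCs, 0 and 2 in PBS pDCs and 6 and 0 in Sirpa+ DCs. The highest level of Cd3d, 25.4 CPM, thus stood in Sirpa+ DC replicate 1 beside 0 in its partner, so that group spanned both pDC groups, while YG+ pDCs (7.02 and 5.37 CPM) lay just above PBS pDCs (0 and 4.63 CPM). None of the CD3 genes had enough reads to enter the test.

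Ptcra (chromosome 17, 46755663 to 46763712, minus strand) encodes the pre-T cell receptor alpha chain of immature thymocytes, and its transcript is also known from human pDCs. It had 0 reads in all 6 libraries, which allows up to 2.36 CPM in YG+ pDCs, 5.09 CPM in PBS pDCs and 4.07 CPM in Sirpa+ DCs, counting error only. Such a 0 holds for the reads that the counting assigned to the gene. Some genes that nearly every cell uses were low by the same counting: Gapdh had 1 to 22 reads and Ubb 0 to 5, while Actb had 972 to 8465. Why Gapdh and Ubb were low was not tested, nor whether the same holds for Ptcra or the CD3 genes. Whether reads of Ptcra or the CD3 genes lay among those not assigned to any gene was not tested.

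Set against all genes, 3 of the 8 members rose in PBS pDCs over Sirpa+ DCs and 0 fell, 1 (Cd4) entered the test without passing and 4 did not enter it. Of 8141 genes tested, 11.4% were called in this comparison, 4.54% higher and 6.89% lower. In YG+ pDCs over Sirpa+ DCs 2 of the 8 rose (Cd8a and Cd8b1) and 0 fell, where 7.16% of genes were called, 3.07% higher and 4.09% lower. Cd8a, Cd8b1 and Lck had only 6, 3 and 4 reads over the Sirpa+ DC group. They entered the test through their pDC reads and had little room to fall. The counts of rises and falls are therefore no test of the members as a set. Cd4, Cd8a, Cd8b1 and Lck were also higher without overlap of the groups in both comparisons, as were 22.9% of tested genes in PBS pDCs and 32.8% in YG+ pDCs, and none was lower without overlap (24.2% and 29.1% of tested genes). At an unadjusted p under 0.05 stood 3 of the 8 in PBS pDCs, where 24.0% of tested genes did, and 4 of the 8 in YG+ pDCs, where 22.8% did. Without Sirpa+ DC replicate 1 or 2, only Cd8b1 passed in either comparison. Without PBS pDC replicate 1 or 2, Cd4 and Lck passed as well in YG+ pDCs.

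Between the pDC groups, 0 of the 8 members passed. The background was 0.00% called (0 of 8141 genes by edgeR and by limma-voom, 45 by DESeq2), with 929 genes (11.4%) and 0 members at an unadjusted p under 0.05. The log2 fold change of YG+ over PBS pDCs was 0.59 for Cd8a (95% interval -0.42 to 1.60) and 0.45 for Cd4 (-0.45 to 1.35). It was -0.29 for Cd8b1 (-1.19 to 0.61) and -1.10 for Lck (-2.27 to 0.06). Cd8a and Cd4 were higher in YG+ pDCs with no overlap of the groups, as were 26.5% of tested genes, and Lck was lower with no overlap, as were 19.3%. Without PBS pDC replicate 1 the values were 0.41 for Cd8a, 0.16 for Cd4, -0.11 for Cd8b1 and -0.94 for Lck. None of these differences held up in the test, and the intervals leave room for changes past 2-fold in Cd8a, Cd8b1, Cd4 and Lck. The plot of fold changes sets these intervals beside those against Sirpa+ DCs.

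**Figure D3:**
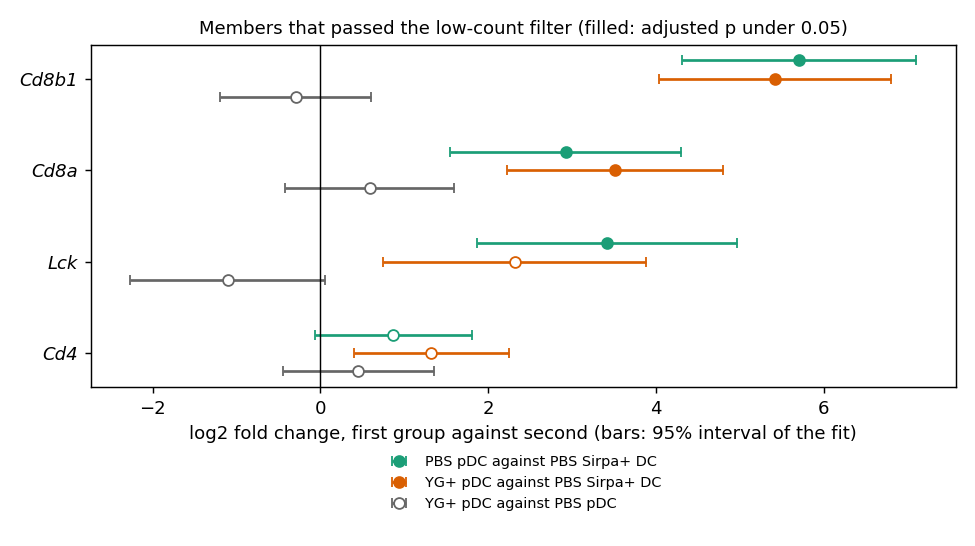
Log2 fold change (x axis) of the 4 members with enough reads to be tested, in the 3 comparisons, with the 95% interval of the edgeR fit; filled points have an adjusted p under 0.05. Cd8b1 stood at 5.71 and 5.42 against Sirpa+ DCs, and all 4 intervals of YG+ against PBS pDCs include 0.

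Levels can be compared between genes only per length. Per kilobase of annotated exon, PBS pDCs held 155 ± 29.8 CPM of Cd8b1 (SD, n = 2), 54.1 ± 18.4 of Cd4, 21.1 ± 4.09 of Lck and 16.6 ± 3.58 of Cd8a. YG+ pDCs held 126 ± 37.2 CPM per kilobase of Cd8b1, 75.5 ± 6.23 of Cd4, 25.7 ± 4.69 of Cd8a and 9.57 ± 2.01 of Lck. Cd8b1 led Cd4 by more than either SD in both pDC groups, and Lck and Cd8a differed by about 1 SD in PBS pDCs. In Sirpa+ DCs Cd4 led with 30.02 ± 0.900 CPM per kilobase, and the other 7 members stood at 6.99 or lower. Per kilobase of coding sequence Cd8a (81.3 ± 17.6) came before Lck (39.5 ± 7.68) in PBS pDCs, so the order of these genes depends on the length used.

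The genes whose profile over the 6 libraries was most like that of a member were ranked by the root mean square difference of centred log2 CPM. The candidates were 6988 genes averaging 20 CPM or more. Closest to Cd8b1 was Siglech, the pDC surface lectin, at a difference of 0.20 against a median of 2.21 over all candidates. Its level was 670 and 979 CPM in the YG+ pDC libraries, 1059 and 928 CPM in the PBS pDC libraries, and 46.5 and 43.9 CPM in the Sirpa+ DC libraries, so both genes were lowest among pDC libraries in YG+ pDC replicate 1. Prkca, a protein kinase C gene (0.28), and Fcrla (0.30), which is also in the list of B cell markers, followed. Cd8a was most like Lpgat1 (0.10), Lynx1 (0.11) and the nuclear envelope gene Lbr (0.18), and Cd8b1 came only 767th for it, at 0.98. Lck was most like St3gal6 (0.22), Sbk1 (0.25) and Zcchc24 (0.27), and Cd4, whose profile is flatter, was most like Rcc2 (0.06) and Vps8 (0.09). With 6 libraries such rankings are a description of these samples.

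Other genes of the T cell receptor pathway were read for 22 signalling genes, 15 transcription factor and Notch genes, and 3 genes of receptor gene recombination. Of these 40 genes, 19 entered the test. Among them, Dntt and Cd2 had 0 reads and Dtx1 had 1 read over the Sirpa+ DC group. Such genes entered through their pDC reads and could not be called lower in pDCs. The counts and medians that follow are therefore no test of these lists. In PBS pDCs over Sirpa+ DCs 4 rose and 2 fell (4.54% and 6.89% of all tested genes), with a median log2 fold change of 1.82 over the 19 and 0.08 over all tested genes. In YG+ pDCs over Sirpa+ DCs 5 rose and 1 fell (3.07% and 4.09%), with medians of 1.56 and 0.04. Between the pDC groups 0 were called (0.00%), with medians of 0.09 and 0.08. Without genes that overlap an exon of the opposite strand, 13 of the 40 entered the test and 6 rose and 0 fell in both comparisons with Sirpa+ DCs. The genes that fell, Notch3 and Zbtb7b, are among those left out, with 6.03% and 2.07% of their exon length under such exons. The map of 46 T-lineage genes gives the read count of each.

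**Figure D4:**
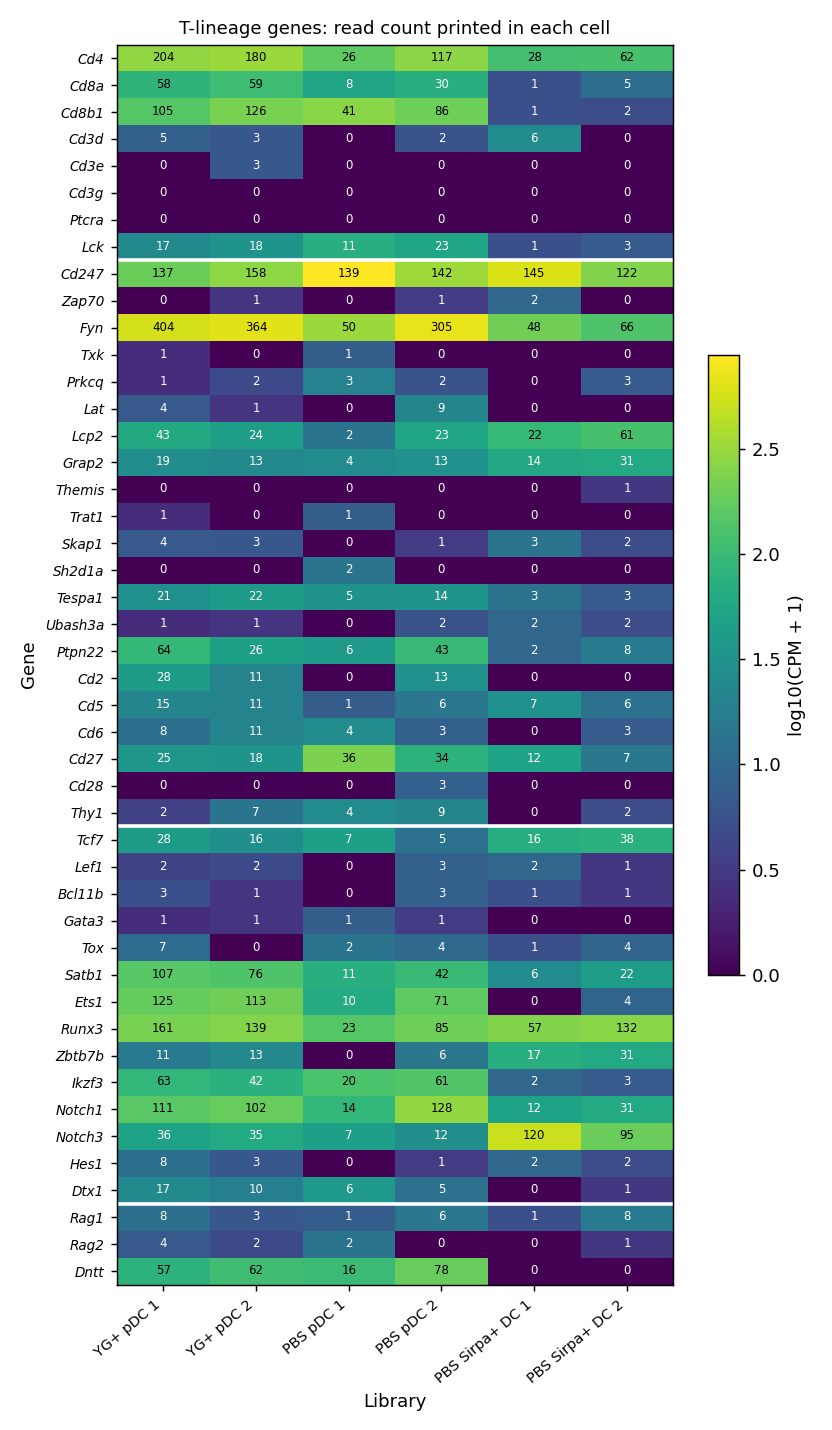
Read count (printed) and log10(CPM + 1) (colour) of the 8 members and 38 other T-lineage genes (y axis, grouped by white lines into members, receptor signalling, transcription factors and Notch, and recombination) in the 6 libraries (x axis). Zap70, Themis and Bcl11b stay at 3 reads or fewer in every library, whereas Fyn, Ets1 and Runx3 reach 404, 125 and 161 reads.

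Several genes used mainly by T cells were at or near 0, and others were not. Of the 22 signalling genes, 9 had at most 3 reads in any library, among them the kinase genes Zap70 and Txk, the adaptor genes Themis and Trat1, and the costimulatory receptor gene Cd28. Zap70, the kinase recruited by phosphorylated CD3, had 0 to 2 reads, and Lat, the membrane adaptor it phosphorylates, 0 to 9. Among the transcription factor genes, Lef1, Bcl11b and Gata3, all used by T cells, also had at most 3 reads in a library. Other T cell genes of these lists had more reads. Lat reached 9 reads (20.8 CPM) in PBS pDC replicate 2, the surface glycoprotein gene Thy1 ran from 0 to 9 reads a library, and the receptor genes Cd5 and Cd6 from 1 to 15 and from 0 to 11. Tcf7, a transcription factor gene of the T lineage, had 5 to 38 reads and was highest in Sirpa+ DCs, at 67.7 and 75.8 CPM against 11.6 to 44.6 CPM in the pDC libraries. Genes of the T cell receptor constant regions were not analysed here.

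Among the signalling genes with more reads, Fyn, a kinase related to Lck, stood at 567 and 651 CPM in YG+ pDCs, at 319 and 706 CPM in PBS pDCs, and at 203 and 132 CPM in Sirpa+ DCs. Fyn rose in YG+ pDCs over Sirpa+ DCs (log2 fold change 1.88 ± 0.49, adjusted p = 0.0428), and its value in PBS pDCs was 1.64 ± 0.49 (adjusted p = 0.0550). Ptpn22, a phosphatase gene that acts on Lck, rose in PBS pDCs (2.47 ± 0.68, adjusted p = 0.0382) with 2.36 ± 0.66 in YG+ pDCs (adjusted p = 0.0544). The call of Fyn was lost without either YG+ pDC or either Sirpa+ DC library (adjusted p = 0.178 to 0.310), and that of Ptpn22 without PBS pDC replicate 2 or either Sirpa+ DC library (0.166 to 0.290). Cd2, an adhesion receptor gene, had 39.3 and 19.7 CPM in the YG+ pDC libraries, 0 and 30.1 CPM in the PBS pDC libraries, and 0 in both Sirpa+ DC libraries. The YG+ pDC mean of Cd2 was 7.26 times the level of 3 reads over the Sirpa+ DC group, without error in that mean (adjusted p = 0.0573). Cd27, a TNF receptor family gene, was 35.1 and 32.2, 230 and 78.7, and 50.8 and 14.0 CPM in turn, with its highest level in PBS pDC replicate 1. Cd247, the zeta chain gene of the receptor, had 122 to 158 reads in every library whatever its gene total. That was 192 to 887 CPM but 5.30 to 7.29 reads per 1000000 uniquely placed reads, and 56.4% of its exon length lies under exons of the opposite strand, so its level is uncertain.

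Among the transcription factor genes, Ets1 and Ikzf3, both known in lymphocytes, rose in both pDC groups. Ets1 stood at 176 and 202 CPM in YG+ pDCs, at 63.8 and 164 CPM in PBS pDCs, and at 0 and 7.97 CPM in Sirpa+ DCs. Its log2 fold changes over Sirpa+ DCs were 5.10 ± 0.75 in YG+ pDCs (adjusted p = 0.00381) and 4.46 ± 0.78 in PBS pDCs (adjusted p = 0.00496). The Sirpa+ DC group held 4 reads of Ets1, all in replicate 2, and the pooled ratios were 34.5 (counting interval 13.3 to 128) and 25.4 (9.54 to 95.4). Without that library the fitted Ets1 values, which then rest on a group at 0, were 9.30 and 8.68. Ikzf3, which encodes Aiolos, had values of 3.53 ± 0.56 and 4.25 ± 0.56 (adjusted p = 0.00513 and 0.00128). Satb1, a chromatin organiser gene high in thymocytes, rose in YG+ pDCs (1.98 ± 0.45, adjusted p = 0.0237), with 1.24 ± 0.48 in PBS pDCs (adjusted p = 0.134). Conversely Notch3 was 508 and 189 CPM in Sirpa+ DCs and 27.8 to 62.6 CPM in the pDC libraries. It fell in PBS pDCs (-3.33 ± 0.60, adjusted p = 0.00594) and in YG+ pDCs (-2.60 ± 0.53, adjusted p = 0.0144). Zbtb7b, which encodes the CD4 lineage factor ThPOK, fell in PBS pDCs (-2.76 ± 0.76, adjusted p = 0.0387), from 71.9 and 61.8 CPM in Sirpa+ DCs to 0 and 13.9 CPM (0 and 6 reads). Zbtb7b no longer passed without Sirpa+ DC replicate 1 or 2 (adjusted p = 0.151 and 0.165), and its value was -7.85 without PBS pDC replicate 2, which held all of its PBS pDC reads. In PBS pDCs Ets1, Ikzf3 and Notch3 passed with any 1 library left out. In YG+ pDCs Ets1 did not pass without Sirpa+ DC replicate 1 (adjusted p = 0.0563), nor Ikzf3 without either Sirpa+ DC library (0.0635 and 0.0865). Notch3 did not pass without either YG+ pDC library or Sirpa+ DC replicate 1 (0.0772 to 0.147), nor Satb1 without any 1 of the YG+ pDC or Sirpa+ DC libraries (0.101 to 0.224).

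Dntt, which encodes the terminal transferase that adds bases during receptor gene joining, stood at 80.1 and 111 CPM in YG+ pDCs, at 102 and 180.5 CPM in PBS pDCs, and at 0 in both Sirpa+ DC libraries. Its mean was 34.7 times the level of 3 reads over the Sirpa+ DC group in PBS pDCs (edgeR adjusted p = 0.00104). In YG+ pDCs the mean was 23.5 times that level (adjusted p = 0.00291). These ratios take no account of error in the pDC means. With 1 library left out, the fitted log2 fold change of Dntt was 8.43 to 9.47 in PBS pDCs and 8.04 to 8.53 in YG+ pDCs. The recombinase genes Rag1 and Rag2 had 1 to 8 and 0 to 4 reads a library and did not enter the test.

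Summed markers of another lymphocyte, the B cell, were also higher in the pDC libraries. The summed level of 9 B cell marker genes was 920 to 1033 CPM in the 4 pDC libraries and 76.2 and 35.9 CPM in the Sirpa+ DC libraries. Fcrla alone made up 125 to 281 CPM in pDCs and 4.23 and 3.99 CPM in Sirpa+ DCs. A sum does not show that each gene differed, and the other genes are not given singly. Every one of the 9 genes had a read in some library, and their part in the result was not tested. For 7 natural killer and innate lymphoid marker genes the sum was 68.0 to 179 CPM against 12.7 and 5.98 CPM, with Klrb1c at 0 and Ncr1, Gzma, Nkg7 and Eomes at 3 reads or fewer in every library. For 14 T cell and thymocyte markers, which include the members and Cd247, it was 791 to 1505 CPM in pDCs and 851 and 469 CPM in Sirpa+ DCs. Cd247 alone, whose level is uncertain, made up 192 to 887 CPM in pDCs and 614 and 243 CPM in Sirpa+ DCs. The 8 members alone summed to 546 to 696 CPM in pDCs and to 157 and 144 CPM in Sirpa+ DCs. Of the 14 markers, Cd3g and Ptcra were at 0 throughout and Cd3e, Zap70 and Bcl11b at 3 reads or fewer. The part of natural killer and T cell markers in the result was not tested either.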

How the data were processed

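RNA from 5 ng per sample was made into libraries by the Ovation SoLo method after TRIzol extraction, per the labels' protocols. The deposited files hold raw read counts per gene symbol, and the submitters' processing notes name bcl2fastq 2.17 and mm10. The sources used here give no aligner, counting program, annotation or strand setting. The 5 summary lines of each file (97.7% to 99.5% of records) were left out.

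The members and gene lists were chosen with earlier results of these data known. Genes kept by filterByExpr (8141) were scaled by TMM (0.924 to 1.09) and tested with edgeR 4.0.16 in R 4.3.3 (glmQLFit, glmQLFTest) in 1 fit of 3 group means over 6 libraries, with 3 residual degrees of freedom. P-values were adjusted over all genes by Benjamini-Hochberg and called under 0.05. Intervals and floors (3 reads) cover counting error only. Named genes were the members, the 4 genes of each T-lineage list with the smallest p, and the 3 genes most like each tested member; the others named were chosen after their values were seen. Some genes of these lists are not reported here. Coordinates and lengths are from GENCODE M21 (GRCm38). Libraries of a group differed beyond sampling noise. Alternatives were other scalings and filters, DESeq2 1.42.0, limma-voom (limma 3.58.1), a fit of 4 libraries, a replicate block, each library left out, a covariate and the removal of genes. Scaling to uniquely placed reads and a crossed block were added after the data were seen.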

Additional observations from a re-analysis of the deposited data

How the results depend on the processing

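Cd8b1 kept its direction against Sirpa+ DCs in every alternative. Its call was lost only in YG+ pDCs under scaling to uniquely placed reads. Apart from that case, log2 fold changes were 5.39 to 5.86 in PBS pDCs and 5.07 to 5.88 in YG+ pDCs. Of 240 fold changes of members under an alternative, 221 kept direction and call, 10 lost and 7 gained the call, and 2 changed sign. Under scaling to uniquely placed reads, added after the data were seen, Cd8a (adjusted p = 0.318) and Lck (0.210) did not pass in PBS pDCs, nor Cd8a (0.156) and Cd8b1 (0.0724) in YG+ pDCs. This moved the median log2 fold change of all genes to 0.95 for YG+ pDCs over Sirpa+ DCs, 1.05 for YG+ over PBS pDCs and -0.03 for PBS pDCs over Sirpa+ DCs.

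In PBS pDCs against Sirpa+ DCs, 931 genes, 3 members and 6 wider T-lineage genes were called. Genes called were 580 in the fit of 4 libraries, 1588 with each library's share of genic reads as a covariate and 76 with scaling to uniquely placed reads. That scaling called 1 member and 1 wider gene, no filter 10 wider genes and the covariate 13. With 1 library left out, calls ran from 214 to 1297 genes, 1 to 3 members and 4 to 10 wider genes. In YG+ pDCs against Sirpa+ DCs, 583 genes, 2 members and 6 wider genes were called. These became 894 genes and 10 wider genes with no filter, 1480, 4 and 11 in the fit of 4 libraries, and 3, 0 and 0 with scaling to uniquely placed reads. With 1 library left out they ran from 69 to 1487 genes, 1 to 4 members and 1 to 12 wider genes. In YG+ against PBS pDCs, 0 genes became 141 with no filter, 45 with DESeq2, 9 with the covariate and 0 to 870 with 1 library left out. Wider genes there became 1 with no filter and 0 to 2 with 1 library left out, and members stayed at 0 under every alternative run. The cause of these changes was not tested.

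Across genes, the differences between replicates 1 and 2 correlated at r = 0.30 between PBS pDCs and Sirpa+ DCs, at -0.12 between YG+ and PBS pDCs and at -0.10 between YG+ pDCs and Sirpa+ DCs. The labels name no mouse or day that a number marks. With the replicate block, 942, 635 and 0 genes and 3, 2 and 0 members were called in the order above. Crossing the YG+ pDC numbers in that block, also added, gave 1396, 1221 and 294 genes and 11, 10 and 1 wider genes.

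Signs changed in YG+ over PBS pDCs, where nothing was called. Cd8b1 became 0.32 with the covariate and 0.75 with scaling to uniquely placed reads. The covariate gave -0.016 for Fyn, -1.65 for Cd2 and -0.18 for Ets1, and scaling to uniquely placed reads gave 0.76 for Ptpn22, 0.26 for Ikzf3 and 0.22 for Dntt. Ptpn22 was 0.0020 with the crossed block, 0.34 without YG+ pDC replicate 2 and, with 1 library left out, ran from -0.62 to 0.88. Fyn ran from -0.22 without PBS pDC replicate 1 to 0.97 without replicate 2, and Cd2 from -0.014 to 6.71 (replicate 2 being the only PBS pDC library with Cd2 reads). In YG+ pDCs over Sirpa+ DCs, Cd27 ran from -0.59 without Sirpa+ DC replicate 2 to 1.23 without replicate 1. A floor of 3 reads at 4.21 to 19.1 CPM limits what the low members can show.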
